A study of Arabidopsis thaliana with 6 samples.

Results

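Photosynthesis in Arabidopsis is built from proteins of 2 genomes. The plastid genome encodes the reaction centre cores and the Rubisco large subunit, and the nucleus encodes the light-harvesting proteins, the outer subunits of both photosystems, parts of the ATP synthase, the Rubisco small subunit and its activase. A list of 53 nuclear loci of this machinery was followed here in frb1-1 seedlings. The loci were listed by the function of their products. The annotation of the array gives a probe set, which is several short probes that together report 1 transcript, to 9 of the 53, and each of these probe sets belongs to 1 gene alone, as do those of 13356 genes in all. They are 3 of the 14 loci of the photosystem II antenna (LHCB4.1, LHCB4.2 and LHCB4.3), 2 of 12 of photosystem I (PSAE1 and PSAN), 2 of 10 of photosystem II (PSBW and PSBY), 1 of 2 of the ATP synthase (ATPC1), and Rubisco activase (RCA) of 5 loci of Rubisco. The other 44 loci, among them all those of the photosystem I antenna, the electron carriers and the Rubisco small subunits, as well as LHCB1, LHCB2, LHCB3, LHCB5 and LHCB6, are given no probe set by that annotation and were not analysed here.

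RNA came from whole Col-0 seedlings grown for 10 days in constant light on Murashige and Skoog medium. Wild-type FRB1 and frb1-1 seedlings were hybridized to 3 ATH1 arrays each, and the labels call the replicates biological. The frb1-1 line carries a T-DNA upstream of At5g01100 (FRB1), which encodes a Golgi protein needed for cell adhesion, and, from a faint FRB1 transcript, is taken to be only a partial loss-of-function allele. It is the only allele on the arrays. No probe set is named for FRB1, so that the labels were not checked with its signal.

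In light, antenna proteins pass the energy that their chlorophyll absorbs to the reaction centres, and the electrons that photosystem II takes from water pass through the cytochrome b6f complex to photosystem I. The proton gradient formed on the way drives the ATP synthase, and ATP and reducing power feed carbon fixation by Rubisco. The nuclear genes of these complexes are expressed together in green tissue, respond to light and to signals from the plastid, and are among the most abundant messages of a leaf.

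Values are linear MAS 5.0 signals of single probe sets, whose trimmed mean was 500 on every array. The log2 signals of 15218 of the 22810 probe sets were compared between the genotypes with limma, and a gene was called at an adjusted p under 0.05. The 3 arrays of each genotype limit the precision, and the smallest p that an exact permutation test (two-sided) can reach with them is 0.10. The highest signal on an array ran from 32729 on frb1-1 replicate 1 to 48435 on frb1-1 replicate 3, and the 99th percentile of the signals from 9444 to 11791 on the same frb1-1 replicate 1 and on wild-type replicate 3. In RNA of whole seedlings, fewer green cells and less message per green cell cannot be told apart.

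No nuclear photosynthesis gene was called in frb1-1 seedlings. Of the 9 genes, 0 were higher and 0 were lower at an adjusted p under 0.05 from limma, beside 0.368% of all tested probe sets, of which 0.276% were higher and 0.092% lower. The lowest adjusted p of the 9 was 0.771. At an unadjusted p under 0.05, 1 of the 9 was lower, beside 2.1% of all tested probe sets (5.96% in either direction). The mean signal in frb1-1 ran from 0.635 of the wild-type mean for LHCB4.3 to 1.04 of it for LHCB4.1. The log2 fold change was below 0 for 8 of the 9, as for 48.7% of all tested probe sets, and its median was -0.17 against 0.01 over all of them. In each of the 9 genes the arrays of the 2 genotypes overlapped. Of all tested probe sets, 10.9% had groups that did not, and overlap in all of only 9 genes does not set them apart from that share.

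The limma standard errors were small for most of these genes, although they draw on the other probe sets of the array too. For 8 of the 9 the 95% interval of the difference lay between -1 and 1 on the log2 scale, as for 68.8% of all tested probe sets. Such an interval leaves out a change of signal of 2-fold or more in either direction. The exception was LHCB4.3, and RCA was a further one with no filter on dim probe sets (lower end -1.03) and without frb1-1 replicate 2 (-1.04). Over the other 8 the intervals reached from -0.84, the lower end for RCA, to 0.39, the upper end for LHCB4.1, and their standard errors ran from 0.15 to 0.20, against a median of 0.27 over all tested probe sets. With no filter the standard errors of all 9 genes ran from 0.23 to 0.28, against a median of 0.37. With no trend of the error with the signal level in limma, they ran from 0.20 to 0.31, against a median of 0.27. The signals themselves spread widely in the wild type for PSBY (16177 to 25332) and RCA (22730 to 31295). All genes but LHCB4.3 had signals high on their arrays that were not checked for saturation, so that the intervals describe signals and not messages.

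**Figure D1:**
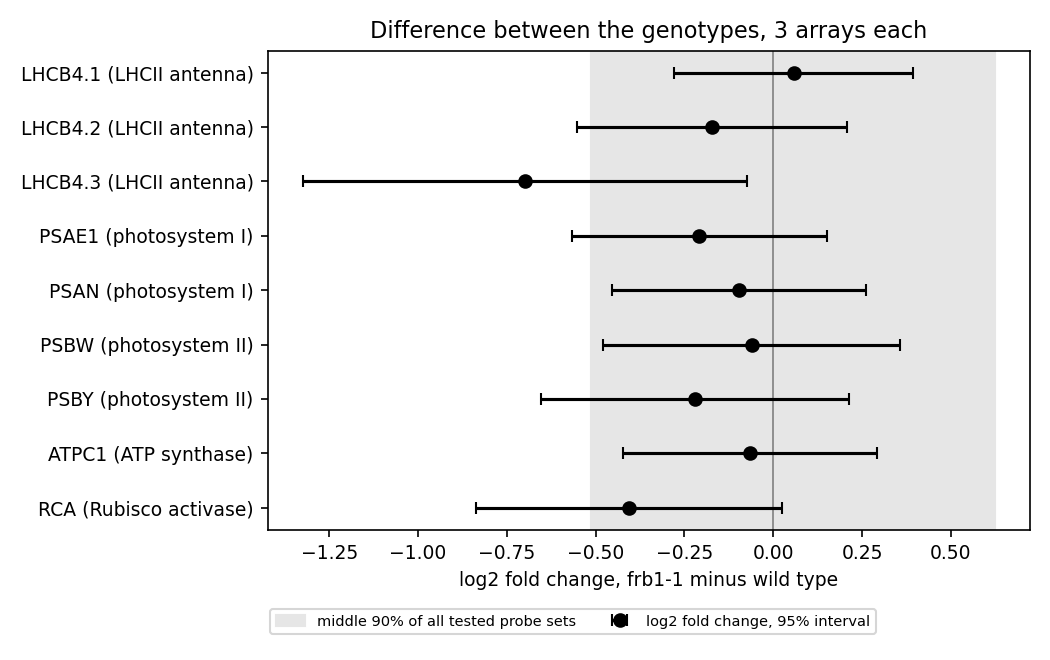
Log2 fold change of each of the 9 nuclear photosynthesis genes, frb1-1 minus wild type (points), with its 95% interval from limma (bars) and, in grey, the range of the middle 90% of all tested probe sets, -0.51 to 0.62. Only the interval of LHCB4.3 extends beyond -1, and it is the only one that leaves out 0.

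LHCB4.1, LHCB4.2 and LHCB4.3 encode CP29, a minor antenna protein that links the trimers of the main antenna to the core of photosystem II. LHCB4.1 (AT5G01530) had signals of 24332, 24124 and 25239 in the wild type and of 24605, 25330 and 26788 in frb1-1. These 6 arrays were nearly level, and 2 of the 3 frb1-1 arrays were above the highest wild-type array. Its log2 fold change, 0.06 (standard error 0.15, 95% interval -0.28 to 0.39), was the only one of the 9 above 0, and the standard error was the smallest of all tested probe sets. LHCB4.1 lies on the same arm of chromosome 5 as FRB1, with 45 protein-coding genes between them in TAIR10.1.

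LHCB4.2 (AT3G08940) had signals of 29971, 24732 and 24326 in the wild type and of 20152, 25020 and 25025 in frb1-1. Only frb1-1 replicate 1 was below the wild type, and replicates 2 and 3 lay among its arrays. In log2 terms the fold change was -0.17 (standard error 0.17, 95% interval -0.55 to 0.21), and -0.07 without frb1-1 replicate 1.

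LHCB4.3 (AT2G40100), whose product differs from the other CP29 proteins at its end and which is also known as LHCB8, had the largest difference of the 9. Its signals were 728, 591 and 861 in the wild type and 293, 493 and 599 in frb1-1. Replicates 1 and 2 of frb1-1 lay below every wild-type array, and replicate 3 lay just above wild-type replicate 2, so that the groups overlapped. This gave a log2 fold change of -0.70 (standard error 0.29, 95% interval -1.32 to -0.07, unadjusted p = 0.0315 and adjusted p = 0.771 from limma). Without frb1-1 replicate 1 it was -0.40. Under the alternatives tried, its adjusted p ran from 0.331 to 0.999.

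Since the CP29 genes form 1 family, the difference between their changes was taken within each array. In frb1-1, LHCB4.3 was lower relative to LHCB4.1 by a log2 difference of -0.76. In this measure no frb1-1 array reached the wild-type range. These genes had the lowest and the highest log2 fold change of the nuclear genes measured. A wide difference between them thus follows from values already seen. Most of it is the change of LHCB4.3 itself (-0.70), whose own groups overlapped. Relative to LHCB4.2 the difference was -0.53, with overlap, and between LHCB4.2 and LHCB4.1 it was -0.23, with overlap. The exact two-sided permutation tests gave p = 0.10, the smallest possible, for LHCB4.3 with LHCB4.1 and p = 0.20 for each of the other pairs, or 0.20 after Benjamini-Hochberg adjustment for each of the 3 pairs. With 3 arrays of each genotype, no such test could pass a threshold of 0.05.

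**Figure D2:**
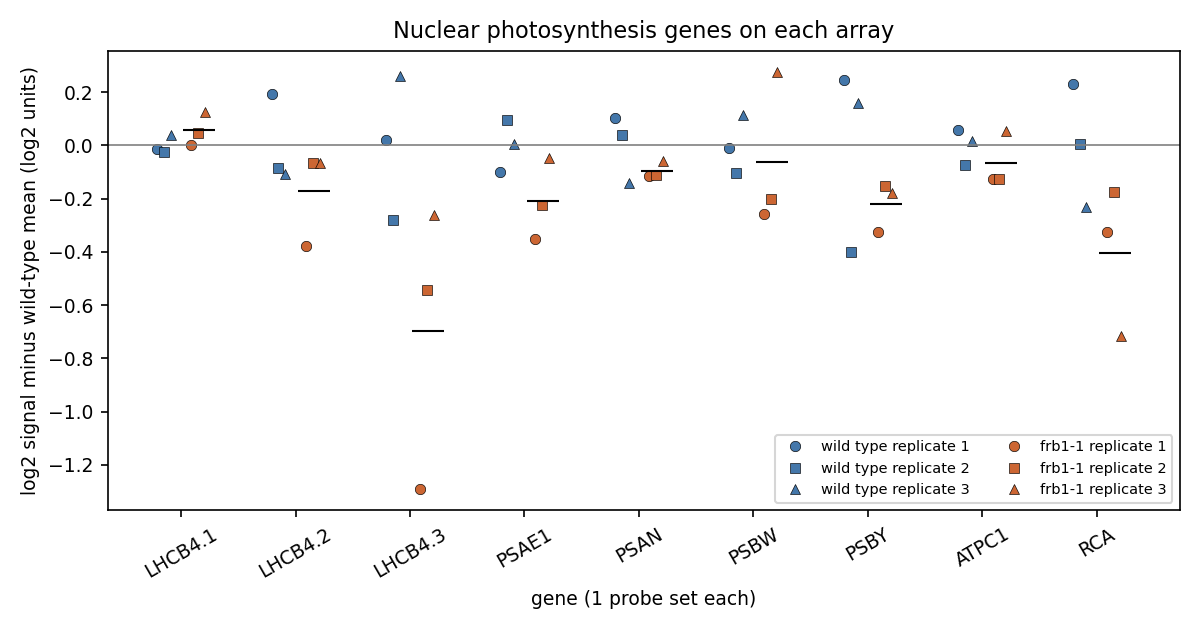
Log2 signal of each gene on each array, relative to the mean of the wild-type arrays (grey line at 0); circles, squares and triangles are replicates 1, 2 and 3, and black bars are frb1-1 means. In all 9 genes the blue wild-type points and the orange frb1-1 points overlap, and the widest gap, for LHCB4.3, is set by frb1-1 replicate 1 (-1.29).

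The nuclear subunits of photosystem I measured here are PSAE1, on the stromal side where ferredoxin is reduced, and PSAN, on the lumenal side where plastocyanin delivers its electron. PSAE1 (AT4G28750) had signals of 24716, 28301 and 26612 in the wild type and of 20771, 22697 and 25625 in frb1-1. Of the frb1-1 arrays 2 lay below all wild-type arrays, and the third lay within their range. The fold change of PSAE1 was -0.21 on the log2 scale (standard error 0.16, 95% interval -0.57 to 0.15). PSAN (AT5G64040) had signals of 17180, 16420 and 14492 in the wild type and of 14765, 14784 and 15338 in frb1-1. The 3 mutant arrays were close together and inside the range of the wild type. For PSAN it was -0.10 (standard error 0.16, 95% interval -0.45 to 0.26).

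PSBW and PSBY encode small membrane proteins of photosystem II. PSBW (AT2G30570) had signals of 14444, 13523 and 15744 in the wild type and of 12172, 12633 and 17616 in frb1-1. The frb1-1 arrays lay on both sides of the wild type, with 2 below it and 1 above it. Around a log2 fold change of -0.06 (standard error 0.19, 95% interval -0.48 to 0.36), the sign depended on single arrays. It was 0.04 and 0.01 without frb1-1 replicate 1 or 2, and -0.23 without frb1-1 replicate 3. PSBY (AT1G67740) had signals of 25332, 16177 and 23835 in the wild type and of 17058, 19220 and 18856 in frb1-1. Here the wild type held both the lowest and the highest array. PSBY stood at -0.22 on the log2 scale (standard error 0.20, 95% interval -0.65 to 0.21), -0.42 without wild-type replicate 2 and -0.10 without wild-type replicate 1.

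ATPC1 (AT4G04640) encodes the gamma subunit of the plastid ATP synthase, the central shaft by which thioredoxin switches the enzyme on in light. Its signals were 16476, 15046 and 16010 in the wild type and 14510, 14509 and 16450 in frb1-1. Replicates 1 and 2 of frb1-1 lay just below the wild type, and replicate 3 lay within its range. Their difference on the log2 scale was -0.07 (standard error 0.16, 95% interval -0.42 to 0.29).

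RCA (AT2G39730) encodes Rubisco activase, the ATP-driven enzyme that frees Rubisco active sites of bound sugar phosphates. Its signals were 31295, 26771 and 22730 in the wild type and 21311, 23642 and 16255 in frb1-1. The 3 wild-type arrays spread widely, and frb1-1 replicate 2 lay above the lowest of them. RCA had the second largest difference of the 9, -0.41 on the log2 scale (standard error 0.20, 95% interval -0.84 to 0.02, unadjusted p = 0.0622 and adjusted p = 0.889 from limma). It was -0.25 without frb1-1 replicate 3, whose signal was the lowest, and -0.52 without wild-type replicate 3.

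The arrays did not contribute equally to these small differences. Of the 9 genes, 4 had their lowest signal of all 6 arrays on frb1-1 replicate 1, and 5 had their highest on wild-type replicate 1. On frb1-1 replicate 1, 6 of the 9 genes lay below every wild-type array, against 4 on frb1-1 replicate 2 and 1 on frb1-1 replicate 3. The median log2 signal of the 9, relative to its mean over the 6 arrays, was 0.15, 0.00 and 0.05 on wild-type replicates 1 to 3 and -0.22, -0.07 and 0.06 on frb1-1 replicates 1 to 3. By this median, replicate 3 of frb1-1 was above 2 of the 3 wild-type arrays, 1 of them only narrowly. The summed signal of the 9 ordered the arrays otherwise. It was 184474, 165686 and 169850 on wild-type replicates 1 to 3 and 145639, 158328 and 162553 on frb1-1 replicates 1 to 3. By that sum each frb1-1 array was below each wild-type array, but only with RCA included. The RCA signal was 16255 on frb1-1 replicate 3 and 26771 on wild-type replicate 2. Without RCA the sum was higher on frb1-1 replicate 3 than on wild-type replicate 2. Taken singly, 4.65% of all tested probe sets had all frb1-1 arrays below all wild-type arrays.

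The median log2 fold change of -0.17 became -0.08 without wild-type replicate 1 and -0.09 without frb1-1 replicate 1, and it ran from -0.23 to -0.16 without any 1 of the other arrays. Quantile normalization, which gives each array the same distribution of signals, brought it to -0.06, with PSAN, PSBW and ATPC1 above 0. The signals of 8 of the 9 genes, all but LHCB4.3, were 31.7% to 75.2% of the highest signal on their array, which was itself lowest on frb1-1 replicate 1, and the part of this in the differences was not tested. With 0 of 9 genes called under each alternative, the count of calls did not depend on any of these choices.

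**Figure D3:**
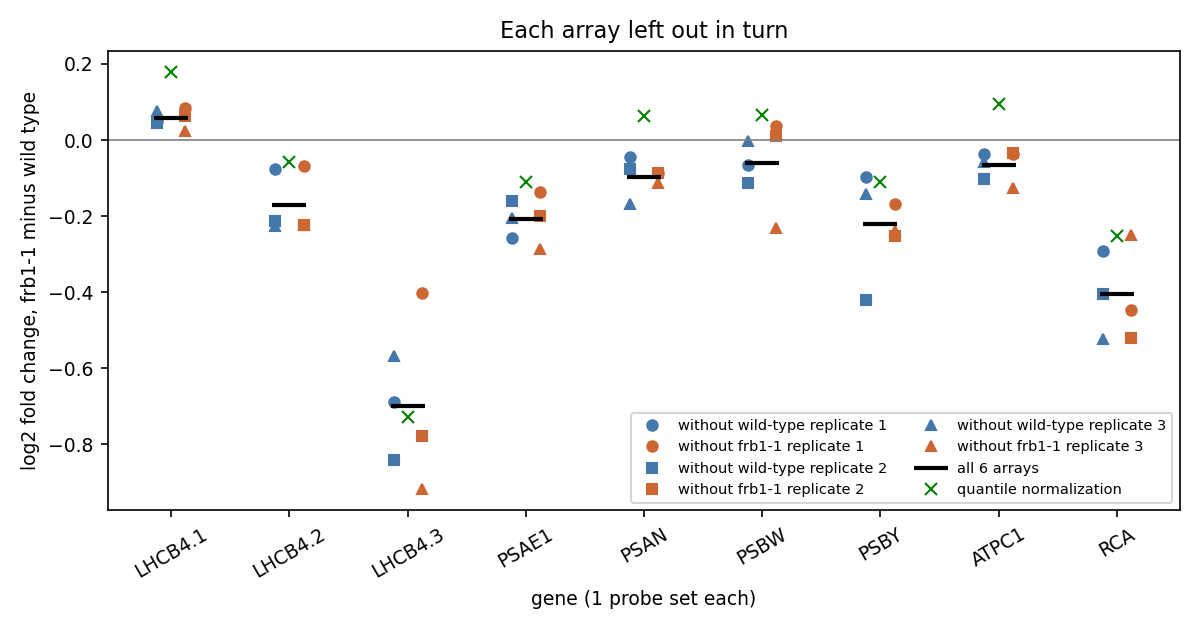
Log2 fold change of each gene with all 6 arrays (black bars), without each wild-type array (blue) or each frb1-1 array (orange), and after quantile normalization (green crosses). LHCB4.3 runs from -0.92 to -0.40 and RCA from -0.52 to -0.25 when 1 array is left out, and PSBW lies on both sides of 0.

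By complex, the median log2 fold change was -0.17 for the 3 CP29 genes of the photosystem II antenna, -0.15 for the 2 photosystem I genes and -0.14 for the 2 photosystem II genes. Without 1 array they ran from -0.23 to -0.07 for the antenna, with the values nearest 0 without replicate 1 of either genotype (-0.08 without that of the wild type and -0.07 without that of frb1-1). For photosystem I they ran from -0.20 to -0.11, and for photosystem II from -0.27, without wild-type replicate 2, to -0.07, without frb1-1 replicate 1. These medians rest on so few genes that they describe the genes named and not the complexes.

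The partners of these proteins that the plastid itself encodes were measured more fully, since the annotation names a probe set for all 32 genes of a list of plastid-encoded photosystem, cytochrome b6f, ATP synthase and Rubisco subunits. Plastid messages mostly lack the long poly(A) tails of nuclear ones. Of the 32 genes none was called by limma (0 higher and 0 lower), beside 0.368% of all tested probe sets. At an unadjusted p under 0.05 from limma there were 0, beside 5.96% of all tested probe sets. So few genes do not stand apart from those shares. The median log2 fold change was -0.02. With 1 array left out, this median ran from -0.20, without wild-type replicate 3, to 0.12, without wild-type replicate 2. By complex, with all 6 arrays, the median was -0.12 for 5 photosystem I genes, -0.01 for 15 photosystem II genes, -0.14 for 5 cytochrome b6f genes and 0.00 for 6 ATP synthase genes. Those with the smallest p were atpE, which encodes the epsilon subunit beside ATPC1 in the ATP synthase (log2 fold change -0.21, standard error 0.16), and petA, which encodes cytochrome f (-0.23, standard error 0.21, but -0.02 without frb1-1 replicate 1). The rbcL gene of the Rubisco large subunit had the lowest log2 fold change (-0.37, standard error 0.43). With the replicate number as a block in limma, rbcL was the 1 gene of the 32 at an unadjusted p under 0.05 (standard error 0.17, unadjusted p = 0.0434, adjusted p = 0.574). Without wild-type replicate 3, 4 of the 32 were, with none called.

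Many of these plastid genes had an extreme signal on the same replicate number in both genotypes. Of the 32, 17 had their lowest signal of each genotype on replicate 3, in the wild type and in frb1-1 alike, as did 22.2% of all tested probe sets and 1 of the 9 nuclear genes (RCA). These 17 held all 5 photosystem I genes and rbcL. The psaA gene of the photosystem I core had signals of 16657, 22572 and 3364 in the wild type and of 15652, 16784 and 3787 in frb1-1. For psaA both replicate-3 arrays were thus far below the other 4, to a similar level in each genotype. The 32 genes together were lower on replicate 3 of the wild type than on that of frb1-1. Their median log2 signal there, relative to the mean over all arrays, was -0.51 in the wild type and -0.20 in frb1-1. Whether the genotypes differed in this was not tested. For rbcL the signals were 11034, 9750 and 3661 in the wild type and 7560, 7822 and 3075 in frb1-1. A further 5 plastid genes, all of photosystem II, had their highest signals on both replicate-3 arrays (15.7% of all tested probe sets, and 3 of the 9 nuclear genes). The standard errors of the plastid genes had a median of 0.29 and ran up to 0.67. Over all tested probe sets the median was 0.27 and the highest 1.23. Of the 32, 22 had a 95% interval within -1 and 1, beside 68.8% of all tested probe sets.

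**Figure D4:**
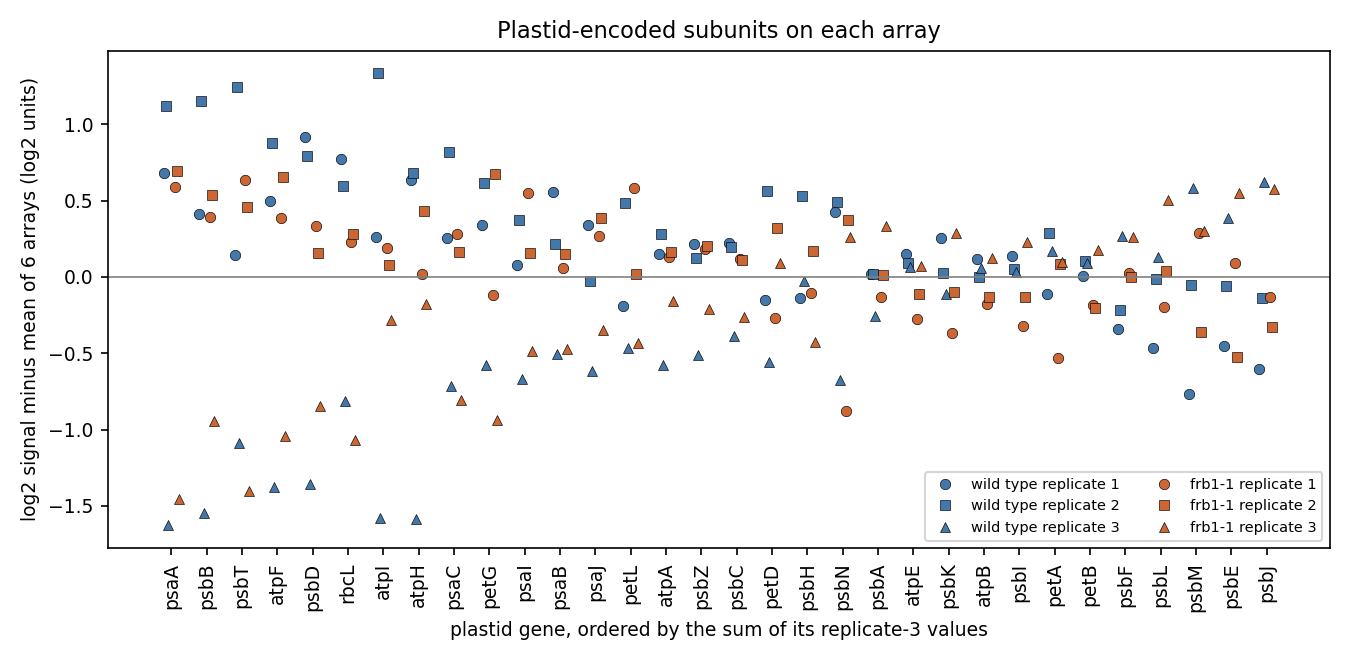
Log2 signal of 32 plastid-encoded photosynthesis genes on each array, relative to the mean of the 6 arrays, ordered by the sum of the 2 replicate-3 values (triangles). At the left, psaA and its neighbours are low on replicate 3 of both genotypes, and at the right psbJ and psbE are high there. Blue wild-type and orange frb1-1 points overlap in each gene. The median of the replicate-3 values is -0.51 in the wild type and -0.20 in frb1-1.

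Few of the other nuclear genes of the pathway are named by the annotation. Of 20 genes of chlorophyll synthesis 6 were measured, of 15 of the Calvin cycle 2, and of 19 other thylakoid genes 3. Of these 11 genes none was called, beside 0.368% of all tested probe sets. The log2 fold changes ran from -0.36 to 0.19, with 9 below 0, as for 48.7% of all tested probe sets. PRK encodes phosphoribulokinase, which makes the substrate of Rubisco, and its signals were 12085, 14334 and 12719 in the wild type and 10156, 11642 and 10846 in frb1-1. All 3 frb1-1 arrays of PRK were below all wild-type arrays (4.65% of all tested probe sets), and its log2 difference was -0.26 (standard error 0.17; adjusted p = 0.996 from limma). LIL3.1, a light-harvesting-like protein of chlorophyll synthesis, likewise had groups that did not overlap and a log2 difference of -0.25 (standard error 0.18). SBPASE, the sedoheptulose bisphosphatase of the Calvin cycle, had -0.24 (standard error 0.19) and PETM, a small subunit of the cytochrome b6f complex, had -0.25 (standard error 0.20), both with overlap. SBPASE was -0.10 without wild-type replicate 2, and PETM was -0.08 without frb1-1 replicate 1. In chlorophyll synthesis, HEME2, a uroporphyrinogen decarboxylase gene, had -0.36 (standard error 0.28, but -0.04 without frb1-1 replicate 3) and HEMB1, an aminolevulinate dehydratase gene, had 0.19 (standard error 0.18).

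Of 16 regulators of photosynthesis genes only HYH was measured, a bZIP factor of light signalling, at 0.12 on the log2 scale (standard error 0.30). A whole seedling also holds other organs and states. Of 15 root markers 3 were measured and 0 called, beside 0.368% of all tested probe sets. For PYK10, a root beta-glucosidase, the wild-type signal was 20093 ± 1337 (SD, n = 3) and that of frb1-1 was 21368 ± 4274 (SD, n = 3), and the summed signal of the 3 ran from 19582 to 22413 in the wild type and from 18997 to 27374 in frb1-1. EXPA7 and EXPA18, expansins of root hairs, had log2 fold changes of 0.13 (standard error 0.24) and -0.15 (standard error 0.21). The only measured marker of stomata, FAMA, had -0.36 (standard error 0.33), at signals of 93.8 to 144. Its groups did not overlap, as in 10.9% of all tested probe sets (4.65% lower in frb1-1). The only measured senescence marker, WRKY53, had 0.38 (standard error 0.46), at signals of 44.1 to 114, and 0.04 without wild-type replicate 3. Neither was called, and each list rests on this 1 gene. Whether the share of green tissue differed between the genotypes was not tested.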

How the data were processed

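ATH1 arrays of 3 wild-type and 3 frb1-1 samples of whole seedlings were compared. The deposited values are signal intensities on a linear scale, normalized by the authors with MAS 5.0 (target 500). A fall of all messages alike would not be seen on this scale. The authors removed probe sets called absent, whereas the deposited table holds all 22810. After removal of the 64 controls, probe sets averaging 6 or more in log2 signal over the 6 arrays (15218) entered limma 3.58.1 in R 4.3.3 on the log2 scale (lmFit, and eBayes with a mean-variance trend), with Benjamini-Hochberg adjustment over them and no pseudocount. The fit was tested on simulated data with independent errors, which lack the shifts shared by many probe sets on replicate 3. Genes were matched through Entrez identifiers to the annotation of the array, or by symbol for plastid genes. Probe sequences were not used here. TAIR10.1 gave the order of genes.

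The members and lists were chosen with earlier results of these data known. By rule, the members given array by array are, in each complex, those with the smallest and the largest p, and further lists give the 2 genes with the smallest p. LHCB4.2 is added to these. The genes psaA, rbcL, psbJ, psbE, PYK10, rpl14, rpl16 and petN are named outside the rule after their values were seen. As alternatives, the fit was repeated without each array, with a replicate block, after quantile normalization or median scaling, with a minimum of 7 or none, with a pseudocount of 32, with array weights, without the trend and for probe sets of 1 gene only.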

Additional observations from a re-analysis of the deposited data

How the results depend on the processing

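Under every alternative 0 of the 9 nuclear genes were called higher or lower. Quantile normalization moved the median log2 fold change of the 9 from -0.17 to -0.057, of the photosystem I genes to -0.024 and of the ATP synthase gene to 0.094, and that of the other nuclear thylakoid genes to -0.10. It turned PSAN (0.062), PSBW (0.066), ATPC1 (0.094) and psaA (0.030) above 0. Without 1 array PSBW ran from -0.23 to 0.037, HYH from -0.14 to 0.30, EXPA7 from -0.033 to 0.22, psaA from -0.96 to 0.58 and rbcL from -0.87 to 0.069. The cause was not tested.

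Over all probe sets, 42 were called higher and 14 lower. The counts were 107 higher and 31 lower with the replicate block. Array weights gave 98 and 24, a fit without the mean-variance trend gave 19 and 9, and leaving out 1 array gave 11 to 66 and 5 to 16. A mean log2 signal of at least 7 gave 9 lower.

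The labels do not say that equal numbers mark a shared batch. The deviations of same-numbered arrays correlated at 0.04, 0.28 and 0.32 for replicates 1 to 3, and 4 of the 6 arrays were closest to their own number. With the replicate block, the lowest adjusted p of the 9 nuclear genes was 0.331, for LHCB4.3, from limma.

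The number of arrays limits all of these values, and signals near the top of the scale were not checked for saturation.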

Other observations

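The plastid genome holds 44 further tested probe sets outside the photosynthesis list, for ribosomal proteins, the plastid RNA polymerase, the NDH complex and others. Among them is petN, a cytochrome b6f subunit gene that the list left out (log2 fold change -0.07, standard error 0.32). None of the 44 was called between the genotypes (lowest adjusted p = 0.996 from limma), beside 0.368% of all tested probe sets. Of these, 28 had their lowest signal of each genotype on replicate 3, and 15 of the 20 probe sets of ribosomal proteins did so. The rpl14 signals were 2865, 4938 and 147 in the wild type and 2767, 3713 and 341 in frb1-1. Those of rpl16, which lies in the same gene cluster, were 15187, 13290 and 606 in the wild type and 10774, 12014 and 1342 in frb1-1.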
